A study of Xenopus laevis with 12 samples.

Results

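Of 44478 gene IDs measured in retinoic acid (RA)-treated foregut endoderm of the frog Xenopus laevis, 31 were raised at every dose tested and were higher again at the top dose than at the lowest. They were chosen by level. The mean over DMSO pools had to reach 0.5 CPM (counts scaled to 1 fixed library total), and the highest group mean 5 CPM. The log2 rise over DMSO, taken on group means with 0.5 CPM added, had to reach 1 at 25, 200 and 500 nM RA, and the rise at 500 nM had to exceed that at 25 nM by at least 0.5. A further 87 IDs met the first 3 of these conditions and not the last, and they serve for comparison below. All 4 groups entered the choice, so the rises over DMSO, the excess at 500 over 25 nM and the fold changes of single members at 500 over 200 nM are given as a description, with no p-value. Tests of 200 against 25 nM share the pools of both groups with the choice. It favours low values at 25 nM, and its rise of at least 1 keeps out IDs that are low at 200 nM. Both make higher values at 200 nM more likely, and p-values of single members in these tests carry the same limit.

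Explants of foregut endoderm, the embryonic layer that forms the lining of organs such as lung, liver and pancreas, were dissected from wild-type embryos (strain NXR_0031) at Nieuwkoop-Faber stage 15 and cultured for about 16 hours at 15 °C, to stage 25. Libraries were made from pools of 8 explants, with 3 pools in each of 4 groups: 0.1% DMSO as vehicle, and RA at 25, 200 and 500 nM. Each pool counts as 1 replicate. No label tells whether the pools come from different clutches or days, and p-values therefore cover only the variation from pool to pool. In pooled tissue, fewer cells of a type and less RNA per cell cannot be told apart.

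Retinoic acid is made from vitamin A and enters the nucleus, where it binds retinoic acid receptors. These receptors sit on DNA as partners of retinoid X receptors, and RA turns genes at such sites on. Cells also raise enzymes of the Cyp26 family in answer to RA, and these degrade it. In vertebrate embryos RA is known for giving the hindbrain, trunk and gut endoderm their positions along the body, and it takes part in forming lung and pancreas from the foregut. The deposited tables hold gene IDs without symbols, and 0 IDs matched a RefSeq gene table of Xenopus laevis. Known RA targets and markers of foregut endoderm or other tissues were therefore not examined, no function is given to any of the 31 IDs, and no sequence is shown. A pair of members is named by ID, that with the largest excess at 500 over 25 nM and that with the highest CPM at 500 nM. The others are referred to by their rank in that excess, from 1 to 31.

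Library totals were 17782601 to 39147729 counts, with the lowest in a DMSO library and the highest in 500 nM replicate 1. The counts of the members ran from 7, in DMSO libraries, to 9046. Within groups, libraries correlated at 0.989 to 0.993 across IDs (Spearman; genes are not independent replicates). Scaling by library totals left the median tested ID at -0.19 against DMSO in 200 nM replicate 1, on the log2 scale, and between -0.11 and 0.00 in the other RA libraries. At 500 nM, replicate 2 was the highest of its group for 27 of the 31 members, replicate 1 for 1 and replicate 3 for 3. The share over all IDs was not computed. The median tested ID was also highest in replicate 2, at -0.07 against DMSO, with -0.11 in both replicates 1 and 3. Chosen without 500 nM replicate 2, 22 of the 31 remained members and 0 other IDs joined them.

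As a group, the members did not climb steadily with dose. Most stood at about the same level at 25 and 200 nM RA, doses that differ 8-fold, and higher at 500 nM, a further 2.5-fold step in dose. The median log2 level over DMSO was 1.65 at 25 nM, 1.62 at 200 nM and 2.41 at 500 nM. From 25 to 200 nM the median step was 0.01, with quartiles of -0.07 and 0.07, and from 200 to 500 nM it was 0.69, with quartiles of 0.53 and 0.84. Over all IDs tested the step from 25 to 200 nM had a median of -0.02, with quartiles of -0.16 and 0.11. A small step there was thus not particular to the members. The choice of members set the sum of both steps at 0.5 or more. A member with little change in the first step therefore had to have most of that sum in the second. The choice did not set where 200 nM lay between the other doses, apart from the rise of at least 1 over DMSO. As a share of the rise in CPM from DMSO to 500 nM, the median member had 53.3% (range 34.3% to 65.8%) at 25 nM and 54.6% (34.8% to 95.2%) at 200 nM. The excess of at least 0.5 caps the share at 25 nM, so the upper end of that range is set by the choice. The group means followed the order DMSO, 25, 200, 500 nM in 16 members and DMSO, 200, 25, 500 nM in 15. With edgeR's TMM factors or DESeq2 size factors in place of library totals, 19 members were higher at 200 than at 25 nM.

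**Figure D1:**
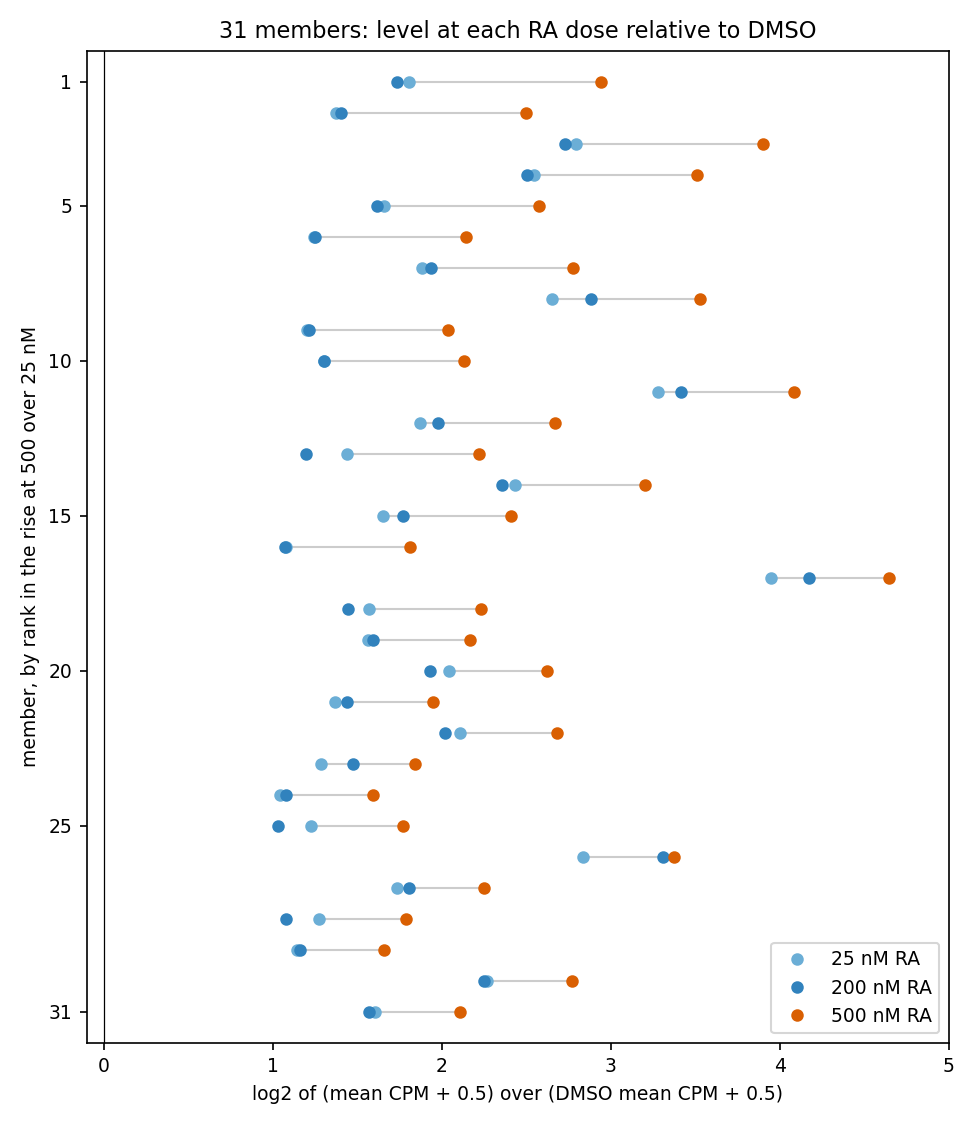
Log2 level over DMSO (x axis) of each of the 31 members (y axis, by rank in the excess at 500 over 25 nM) at 25, 200 and 500 nM RA; each point is a group mean of 3 pools with 0.5 CPM added. Points for 25 and 200 nM lie close together in most rows, within 0.1 of each other in 19 members, and the 500 nM point lies to the right of both in all 31.

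XBXL10_1g4602 had the largest excess at 500 over 25 nM, 1.14 on the log2 scale. It stood at 7.11, 6.02 and 5.79 CPM in DMSO pools, at 24.3, 23.3 and 22.2 CPM at 25 nM, at 21.1, 21.2 and 24.1 CPM at 200 nM, and at 46.8, 58.7 and 49.8 CPM at 500 nM RA. The ranges at 25 and 200 nM overlapped, while each 500 nM pool was above every other pool. The mean at 500 nM was 51.8 ± 6.17 CPM, against 22.1 ± 1.68 CPM at 200 nM (SD, n = 3 each). Fitted by edgeR, the log2 fold change of 500 over 200 nM was 1.23 (SE 0.0679). That of 200 over 25 nM was -0.05 (95% interval -0.19 to 0.10, edgeR adjusted p = 0.728). The interval covers variation from pool to pool only, and this ID was picked for its excess over 25 nM. Per transcript length, its level was 2.31 TPM in DMSO, 8.81 TPM at 25 nM, 8.35 TPM at 200 nM and 19.3 TPM at 500 nM, where TPM, as deposited, is scaled to transcript length and library.

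XBXL10_1g13213 had the highest CPM of the members at 500 nM. Its values were 15.2, 13.7 and 13.1 CPM in DMSO, 150, 136 and 135 CPM at 25 nM, 141, 167 and 154 CPM at 200 nM, and 231, 261 and 244 CPM at 500 nM RA. Again the ranges at 25 and 200 nM overlapped in CPM and the 500 nM pools stood above all others. The overlap rested on 200 nM replicate 1, at 141 CPM. That library had the lowest TMM factor, 0.891, and is left low by library totals, so the overlap is given for this scaling only. The log2 rise over DMSO was 3.28 at 25 nM, 3.42 at 200 nM and 4.09 at 500 nM. In edgeR the log2 fold change of 500 over 200 nM was 0.68 (SE 0.0484). Between 200 and 25 nM it was 0.16 (SE 0.0493, edgeR adjusted p = 0.00169), a call that limma on log2(TPM + 1) did not make (0.13, adjusted p = 0.202). CPM grows with transcript length, and in TPM the order of members differed. This ID had 75.6 ± 3.59 TPM at 500 nM, while the member ranked 12 had the highest level, 286 ± 19.6 TPM (SD, n = 3 each).

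**Figure D2:**
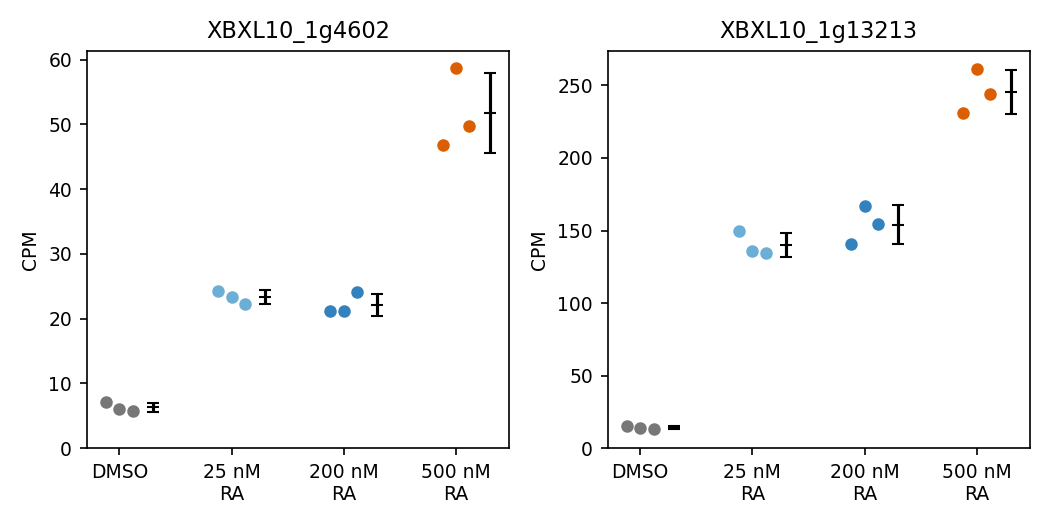
CPM (y axis, from 0) of XBXL10_1g4602 and XBXL10_1g13213 in each of the 12 pools, by group (x axis); points are pools and bars are mean ± SD of 3 pools. Scaled by library totals, the 25 and 200 nM pools overlap in both panels, for the second ID only through 200 nM replicate 1. They lie at 21.1 to 24.3 CPM for the first ID and 135 to 167 CPM for the other, and the 500 nM pools lie above them.

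Whether the level differed between neighbouring doses was asked in an edgeR quasi-likelihood fit to the 24454 IDs with enough counts, which included all 31 members. Between 500 and 200 nM RA, 30 of the 31 members were higher at 500 nM at an adjusted p under 0.05, where 14.0% of all IDs tested were. In the same comparison 0 members were lower, where 15.1% of all IDs were. The number was also 0 by DESeq2 (13.3% of all IDs) and by limma. It was 0 by edgeR at an unadjusted p under 0.05 as well, for which no share over all IDs is given. By limma 12.2% of all IDs were lower on log2(TPM + 1) and 12.3% on log2(TPM + 0.1). All 3 pools at 500 nM lay above all 3 at 200 nM in 30 members, against 14.4% of all IDs. High values at 500 nM were part of the choice. It therefore favours many higher members and few lower ones, and none of these counts is independent support. The fitted log2 fold changes of the members ran from 0.08 to 1.23, with a median of 0.73 against -0.01 over all IDs. Of the members, 6 were called and at least 2-fold higher, against 0 of the 87 comparison IDs. The choice favours the members' count, and the limit on the excess at 500 over 25 nM holds down that of the 87. The largest step from 200 to 500 nM among the 87 was 0.82 on the log2 scale. The 2 counts thus differ largely by design, and the share over all IDs was not computed.

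Between 200 and 25 nM RA, 5 members were higher at 200 nM (edgeR adjusted p under 0.05), where 10.2% of all IDs were, and 1 was lower, where 9.67% were. The share that was higher, 16.1%, and the share that was lower, 3.23%, rest on few members. The choice favoured low values at 25 nM and kept out IDs with a rise under 1 at 200 nM, so neither is independent support. The other 25 members were not called. A missed threshold does not show equal levels, so the size of difference that the data allow was computed. The 95% interval of the log2 fold change lay within 0.5 of no change for 30 of the 31 members, and over all 31 the intervals reached from -0.47 to 0.78. It lay within 0.5 for 62 of the 87 comparison IDs as well, and the share over all IDs was not computed. In CPM, all 3 pools at 200 nM lay above all 3 at 25 nM in 3 members, against 10.5% of all IDs, and below them in 1 member, against 13.4%. In the other 27 the pools overlapped. These pool counts rest on scaling by library totals, which left 200 nM replicate 1 low (TMM factor 0.891). They were not made with the TMM factors that the edgeR calls use, and can differ under them. With a log2 change of at least 0.32 required as well, 1 member was higher and 0 were lower at 200 nM by edgeR. Of all IDs, 6.09% and 4.83% were. Without that requirement, 6 were higher and 3 lower by edgeR at an unadjusted p under 0.05. No share over all IDs is given for this cut, so these 2 counts do not set the members apart from other IDs. DESeq2 called 4 higher and 1 lower, against 8.98% and 7.99% of all IDs. Fewer were higher by limma. On log2(TPM + 1) 1 was higher and 1 lower, against 4.22% and 6.55%. On log2(TPM + 0.1) 0 were higher and 0 lower, against 4.09% and 6.33%. By edgeR, 3 were higher without 25 nM replicate 1 or 2 or 200 nM replicate 1 or 2, against 7.31% to 8.46%.

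The exception was the member ranked 26, which was singled out after its values were seen. It stood at 0.334, 0.619 and 0.571 CPM in DMSO (7, 11 and 14 counts), at 6.44, 7.28 and 6.41 CPM at 25 nM, at 9.26, 10.9 and 8.31 CPM at 200 nM, and at 9.99, 9.30 and 10.5 CPM at 500 nM. Here the pools at 200 nM were above those at 25 nM, and they overlapped with those at 500 nM. Its log2 fold change was 0.53 for 200 over 25 nM (SE 0.129, edgeR adjusted p = 0.00103) and 0.08 for 500 over 200 nM (95% interval -0.16 to 0.32). It had already 95.2% of its rise at 200 nM, and it was the only one of the 31 without a call between 500 and 200 nM.

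Another 3 members besides XBXL10_1g13213 and the member ranked 26 were called higher at 200 than at 25 nM. They ranked 8, 12 and 17, and all were among the 4 highest members by CPM at 500 nM. The member ranked 17 had the largest rise over DMSO of all 31. Its pools stood at 8.35, 6.75 and 8.36 CPM in DMSO, 127, 129 and 128 CPM at 25 nM, 135, 165 and 150 CPM at 200 nM and 204, 212 and 207 CPM at 500 nM. Its pools at 25, 200 and 500 nM thus did not overlap with each other. The log2 fold changes were 0.25 for 200 over 25 nM (SE 0.0496, edgeR adjusted p = 3.13e-06) and 0.49 for 500 over 200 nM (SE 0.0488). The members ranked 8 and 12 differed between 200 and 25 nM by 0.25 and 0.13 on the log2 scale (SE 0.068 and 0.0528, edgeR adjusted p = 0.0186 and 0.039).

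In the other direction, the member ranked 28 was lower at 200 than at 25 nM. It had the highest level of the members in DMSO by CPM, with 38.2, 40.0 and 43.3 CPM there, and stood at 105, 99.2 and 92.3 CPM at 25 nM, 77.4, 86.1 and 94.8 CPM at 200 nM, and 135, 151 and 137 CPM at 500 nM. In CPM scaled by library totals, replicate 3 at 200 nM overlapped with the 25 nM pools, and the other 2 did not. The log2 fold change of 200 over 25 nM was -0.18 (SE 0.0521, edgeR adjusted p = 0.00223). That of 500 over 200 nM was 0.73 (SE 0.0513). The member ranked 13 had the lowest fitted value between 200 and 25 nM, -0.24 (SE 0.117), and did not pass the test (edgeR adjusted p = 0.164). Its pools stood at 8.49, 9.26 and 12.6 CPM at 200 nM, against 11.8, 10.99 and 13.4 CPM at 25 nM. The 1 member with all 3 pools at 200 nM below all 3 at 25 nM was that ranked 25. It stood at 16.6, 18.1 and 18.6 CPM at 200 nM, against 21.6, 19.6 and 19.9 CPM at 25 nM. Its log2 fold change was -0.17 (SE 0.0806) and was not called (edgeR adjusted p = 0.115).

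**Figure D3:**
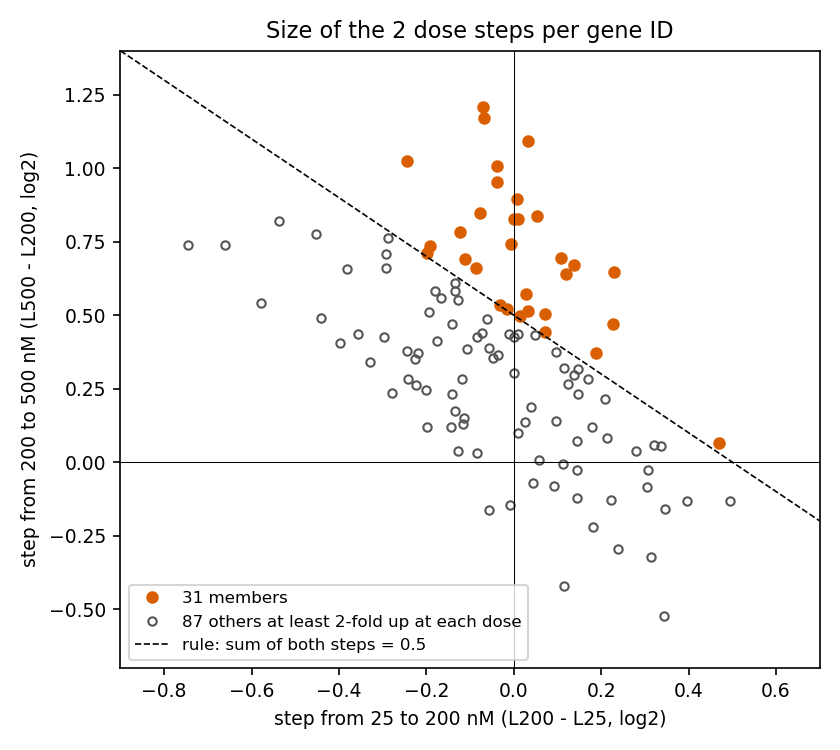
Step from 25 to 200 nM (x axis) against step from 200 to 500 nM (y axis), both as differences of the log2 level over DMSO, for the 31 members and the 87 other IDs at least 2-fold up at each dose; the dashed line is the limit set by the choice of members. Members lie between -0.24 and 0.47 on the x axis and between 0.06 and 1.21 on the y axis.

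The members varied widely in level and in size of response. Group means ran from 0.508 to 40.5 CPM in DMSO, 3.07 to 140 CPM at 25 nM, 3.09 to 154 CPM at 200 nM and 6.18 to 246 CPM at 500 nM RA. The median mean was 4.49, 17.5, 17.8 and 29.7 CPM in the same order of groups. The log2 rise over DMSO at 500 nM ran from 1.59 to 4.64. The member ranked 3 had the least in DMSO of the 4 with the largest excess, at 0.573, 1.07 and 0.857 CPM. It stood at 10.4, 8.53 and 7.36 CPM at 25 nM, 7.83, 8.83 and 8.31 CPM at 200 nM and 19.5, 20.1 and 18.5 CPM at 500 nM, so 25 and 200 nM again overlapped. The lowest 500 nM pool was at least 1.5 times the highest 25 nM pool in 12 of the 31 members. The choice used 500 against 25 nM, so this count is favoured by it, and its share over all IDs was not computed.

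The members just inside the limit of 0.5 had an excess at 500 over 25 nM of 0.50, 0.50 and 0.51, and the IDs just outside it had 0.47, 0.48 and 0.48. The group therefore has no gap at its edge. The member ranked 31, the last inside, stood at 4.10, 3.15 and 5.51 CPM in DMSO, 15.6, 13.7 and 12.6 CPM at 25 nM, 11.7, 15.8 and 13.4 CPM at 200 nM and 19.2, 22.2 and 18.5 CPM at 500 nM. Its 500 nM pools lay above those at both lower doses, which overlapped. Its log2 fold change of 500 over 200 nM was 0.57 (SE 0.0967).

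Single pools were also examined by leaving out 1 library at a time, choosing members from the other 11 and reading the library left out. It was set against means of the other groups that did take part in the choice, so only 1 side of each value is held out, and no test was made. Without a 500 nM library, 22 to 35 IDs were chosen. The choice asks more than a 2-fold rise of the other 500 nM pools, so that rise in the library left out says little. All had it there, against 1.97% to 2.90% of all IDs tested. The excess of 0.5 over 25 nM was present there in 20 of 35 IDs for replicate 1, 20 of 22 for replicate 2 and 23 of 33 for replicate 3, while 4.76% to 5.41% of all IDs tested had it in these pools. Without a 25 nM library, 27 to 33 were chosen, and the excess of 500 nM over the pool left out was present in 19 of 32, 26 of 33 and 25 of 27 for replicates 1, 2 and 3, and in 5.49% to 6.51% of all IDs. At 200 nM, the rise of at least 2-fold over DMSO was present in the pool left out in 24 of 32, 30 of 31 and 30 of 30, and in 1.37% to 2.13% of all IDs. With a DMSO library left out, each dose was at least 2-fold above that pool in 28 of 29, 28 of 30 and 25 of 29. Of all IDs, 0.867% to 0.969% were. Over the 12 runs, 18 of the 31 members were chosen each time, 13 were missed at least once, and 12 other IDs came in at least once.

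The members were set beside the 87 other IDs that were at least 2-fold up at each dose. Against the members' 1.65, 1.62 and 2.41, the 87 were above DMSO by a median log2 rise of 1.54 (25 nM), 1.43 (200 nM) and 1.75 (500 nM). The step from 25 to 200 nM had quartiles of -0.07 and 0.07 over the members, against -0.20 and 0.14 over the 87, whose median was -0.06. Between 200 and 25 nM, 5 of the 31 members were called higher and 1 lower in edgeR, against 14 and 15 of the 87. Between 500 and 200 nM, 30 members were higher and 0 lower, against 48 and 4 of the 87. The limit on the excess separates both sets by design, so these values describe them and no test was made.

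**Figure D4:**
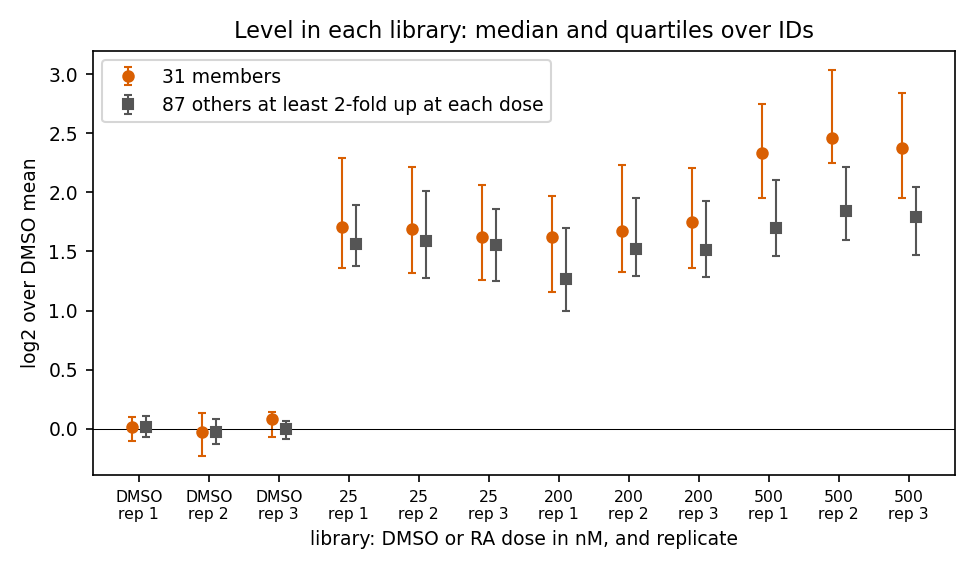
Log2 level over the DMSO mean (y axis) in each library (x axis), with points at the median and bars from the lower to the upper quartile over the 31 members and over the 87 other IDs at least 2-fold up at each dose. Scaled by library totals, the members' medians lie between 1.62 and 1.75 in the 6 libraries at 25 and 200 nM and between 2.33 and 2.46 at 500 nM.

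By library, the members' median log2 level over the DMSO mean was 1.70, 1.69 and 1.62 at 25 nM, 1.62, 1.68 and 1.75 at 200 nM, and 2.33, 2.46 and 2.38 at 500 nM RA. The ranges at 25 and 200 nM overlapped and the 500 nM libraries lay above both. For the 87 other IDs the medians were 1.57, 1.59 and 1.55 at 25 nM, 1.27, 1.52 and 1.52 at 200 nM, and 1.70, 1.85 and 1.79 at 500 nM. In both sets, scaled by library totals, replicate 2 was the highest at 500 nM and replicate 1 the lowest at 200 nM. That scaling left the median tested ID at -0.19 in 200 nM replicate 1, which had a TMM factor of 0.891. The order at 200 nM can therefore differ under TMM factors. Results without each library are given in the section on processing, and the cause of the order was not tested. Together the members held 0.0244% to 0.0257% of a library's counts in DMSO, 0.104% to 0.113% at 25 nM, 0.102% to 0.120% at 200 nM and 0.170% to 0.193% at 500 nM.

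Features that the choice did not use directly were also compared. The coefficient of variation between pools had a median over members of 15.1% in DMSO, 6.90% at 25 nM, 10.1% at 200 nM and 8.32% at 500 nM, against 9.45%, 9.33%, 11.99% and 9.12% over all IDs tested. Over the 87 it was 11.7%, 7.61%, 10.8% and 6.99%. The choice did use level. Median CPM was 4.49 in DMSO and 17.5 at 25 nM over members, against 6.99 and 6.99 over all IDs. The part of level in this variation was not tested. The ratio of counts to TPM, which follows the effective transcript length, had a median of 1.13 over members (range 0.244 to 5.55) in units of the median tested ID. It changed by less than 1.1-fold across the 12 libraries in 30 members, and by 2.67-fold in the member ranked 18, whose level per length is therefore less certain. That member's means were 7.91, 7.22 and 12.8 CPM at 25, 200 and 500 nM. In TPM they were 3.65, 1.89 and 4.20, so the pattern in CPM was not seen per length. Among the 23309 IDs that averaged 10 or more counts, 32 had counts identical to those of another ID, and 0 of the 31 members were among them. Xenopus laevis carries many genes as a pair of similar copies, which can share reads, and members were not sorted into such pairs.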

How the data were processed

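RNA was measured in 12 libraries, 3 pools in each of 4 groups, with mRNA libraries that keep the strand, per the labels' protocols. The authors deposited 2 tables for the same gene IDs, 1 of expected counts rounded to whole numbers and 1 of TPM. RSEM 1.3.0 and Bowtie2 were used, per the submitters' processing notes; what each did, and on which genome build and annotation, is not given in the sources used here. A read that fits several genes is shared out by RSEM, which makes counts of similar copies estimates. Each table has 44479 rows; 1 names no gene, has a count of 0 and was left out.

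CPM is a count divided by the library total. Members, comparison IDs and named IDs were chosen with earlier results of these data known. The rule for names took the member with the largest excess at 500 over 25 nM and the one with the highest CPM at 500 nM. Because 0 IDs matched RefSeq gene identifiers of Xenopus_laevis_v10.1, the gene and marker lists set up for this work were not run. For tests, R 4.3.3 and edgeR 4.0.16 were used: filterByExpr at a minimum count of 10 (24454 IDs left), TMM factors (0.891 to 1.06), a robust quasi-likelihood fit of 4 groups, and Benjamini-Hochberg adjustment over all IDs tested, with calls at an adjusted p under 0.05. Standard errors came from the model's information and quasi-likelihood dispersion, with the variance of the fitted count model, its dispersion included, as the lower bound. The 95% intervals are 1.96 of them, which is too narrow for IDs whose robust fit left few degrees of freedom. Pools of a group were all distinct beyond counting noise (chi-square 2.90 to 88.3 per degree of freedom). The edgeR procedure was tested on simulated counts. Alternatives were DESeq2 1.42.0 or its size factors, limma 3.58.1 on log2(TPM + 1) or log2(TPM + 0.1), other filters, pseudocounts and limits, a replicate block, 2 groups alone, and libraries left out.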

Additional observations from a re-analysis of the deposited data

How the results depend on the processing

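Of 147 alternative values for the group results, 132 stayed within 1.5 times the count or within the spread of libraries, and of 92 for the 2 named IDs, 89 had the same direction and call. Some of these values could not change, so both tallies overstate how stable the results are. The median step from 200 to 500 nM, for example, does not use the 25 nM libraries, and the limit on log2 change does not alter a fitted value. A like count does not mean the same members: with the deposited TPM, where the level minimums were read in TPM, 26 IDs were chosen and 19 of the 31 were among them. With TMM or DESeq2 scaling 35 were chosen, which held 30 of the 31. A limit of 0.25 or 1 on the excess gave 72 or 3 members in place of 31. Leaving out each library gave 22 to 35 members, with 22 without 500 nM replicate 2. It gave 3 to 5 members higher and 1 to 2 lower at 200 than at 25 nM. Of all IDs, 7.31% to 10.6% were higher and at least 6.67% lower. At 500 over 200 nM, 29 to 30 members were higher and 0 lower, counts that the choice favours. Of all IDs, 10.8% to 13.8% were higher there and at least 11.6% lower. The medians of these steps were -0.04 to 0.07 and 0.63 to 0.75, and the cause was not tested. The 3 higher at 200 than at 25 nM were reached without 25 nM replicate 1 or 2 or 200 nM replicate 1 or 2. The 2 lower were reached without 200 nM replicate 3 (9.79% of all IDs). Between 200 and 25 nM, requiring a log2 change of 0.32 left 1 higher and 0 lower. Limma on log2(TPM + 1) left 1 higher, and on log2(TPM + 0.1) 0 higher and 0 lower. The shares over all IDs for the limit on log2 change and for limma are given above. The log2 fold change of XBXL10_1g4602 between 200 and 25 nM ran from -0.0842 to 0.0133 over libraries left out, with the change of sign without 200 nM replicate 2 (edgeR adjusted p = 0.948). For XBXL10_1g13213 limma gave 0.13 at both pseudocounts (adjusted p = 0.202 and 0.227).

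Chosen after seeing the data, leaving out 200 nM replicate 3 and 500 nM replicates 1 and 3 gave 44 members, 28 of the 31 among them. The median step from 200 to 500 nM was then 0.88, read from a lone 500 nM library with no spread of its own. Leaving out 200 nM replicate 3 and 500 nM replicate 2 gave 21 members, with 2 of the 31 lower at 200 than at 25 nM, against 10.6% of all IDs. With a replicate block, 30 members were higher at 500 than at 200 nM, against 14.0% of all IDs. At 200 over 25 nM, 5 were higher and 1 lower with it, against 10.2% and 9.61%. Libraries with the same number deviated from their groups with correlations of -0.05 to 0.11 (18 pairs), and the labels do not pair them. Low counts in DMSO limit the folds of members near the minimum level.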

Other observations

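IDs with a pattern like that of the named members were sought over the 4 group means, as a description. For XBXL10_1g4602, 349 other IDs tested had a Pearson correlation of log2(CPM + 0.5) over 0.99, and for XBXL10_1g13213 there were 273. Of the 30 other members, 13 and 15 were among these, and the correlations of the other members were at least 0.917 and 0.941. All 4 means enter the choice of members, and 4 points give high values easily. The 5 IDs most like XBXL10_1g4602 included 0 members, with log2 rises at 500 nM over DMSO of 0.13 to 1.52. The 5 most like XBXL10_1g13213 also included 0 members, with rises of 0.19 to 2.18, so a like shape was found at smaller sizes of response.

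The numbers within the IDs were compared as well, although the sources used here do not say whether they follow the order of genes. The members ranked 6 and 15 carry consecutive numbers. Of the 31 members, 4 (12.9%) had another ID that was at least 2-fold up at each dose within 5 numbers, as had 19 of the 87 others (21.8%) and 2.74% of all IDs tested. The member ranked 6 stood at 1.24, 1.01 and 0.775 CPM in DMSO, 3.22, 2.83 and 3.17 CPM at 25 nM, 3.28, 2.59 and 3.40 CPM at 200 nM and 6.03, 7.03 and 5.48 CPM at 500 nM RA. The 25 and 200 nM pools overlapped, and the 500 nM pools lay above them.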
